A study of Drosophila melanogaster with 6 samples.

Results

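Neuropeptide and peptide-hormone precursor genes were followed in RNA sequencing of larval brains and nerve cords of the fly Drosophila melanogaster. A list of 33 precursor genes was matched by gene name to the 16958 genes of the authors' deposited tables, and all 33 were found. Each gene was represented by its transcript of highest base mean, the mean over libraries of the read count after scaling for depth. Of the 33 genes, 22 reached a base mean of 10, 6 lay above 0 and under 10, and 5 were listed at 0. The members lie on all major chromosome arms, with 15 of them on 3R.

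The study compared transcript levels between control larvae and larvae with neuronal RNAi against dSET2. This target, Set2 by its gene symbol, is a methyltransferase of lysine 36 on histone H3. The control larvae had the genotype dSET2 RNAi/+; Canton S, and the knockdown larvae had dSET2 RNAi/+; elavC155GAL4, so both carried the RNAi transgene and only the knockdown carried the driver. The elavC155GAL4 driver is known as a neuronal driver, and the cells in which it was active here are not shown by the sources used. Larvae were in the third instar at 84 h after egg laying and were reared at 25 °C. RNA of 15 central nervous systems was pooled per sample, and 3 samples were labelled for each genotype.

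Neuropeptides are cut from larger precursor proteins by convertases, packed into dense-core vesicles and released to act on receptors, most of which couple to G proteins. In the fly larva a precursor is often made by a small set of identified neurons, such as the insulin-producing cells of the brain, the Hugin neurons of the subesophageal zone or the Capa neurons of the abdominal ganglia. Peptides released from them are known for roles in growth, feeding, water balance, moulting and clock output. In RNA from whole tissue, fewer cells of a type and less RNA per cell cannot be told apart.

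The authors' tables hold 4 libraries, called A, B, C and D here, while the labels describe 6 samples. The libraries carry no names, and the fold change sets A, C and D on one side against B alone: of the transcripts with a single read, all 499 with that read in A, all 427 in C and all 194 in D have a positive fold change, and all 489 in B a negative one. Which side is the knockdown is not stated in the sources used here, so every direction below is given by side and none is a direction of the knockdown. A p-value from these tables measures only the spread between these libraries, with B unreplicated on its side. Effective library sizes were 14197600, 10613400, 8405440 and 6974250 reads in A, B, C and D. The transcript of Set2 had 10, 36, 21 and 0 reads in that order, and per the authors' deposited edgeR table its log2 fold change was -1.65 with an adjusted p of 1. On the normalized scale this Set2 transcript had 6.75 (A), 32.4 (B), 23.3 (C) and 0 (D), and another transcript of Set2 was listed at 0. Neuron markers were present, 11 of 12 at a base mean of at least 10, among them elav at 2614. Library B stood apart in the summed counts of markers of other tissues. The summed normalized count of 4 of 8 muscle markers was 68514 in B and 3676 to 29028 in the others, and no muscle marker was at 0. In B nearly all of it came from Act57B at 37998 and Mlc2 at 30456. The muscle markers wupA, up and Act87E were not highest in B, on 26, 10 and 2 reads there. Mhc and Mlc1 of that list had an unadjusted p of 0.00408 and 0.0328, and neither was called per the authors' deposited edgeR table. Mlc1 rests on 3 reads in B and 0 in A, C and D, and is not in the muscle sum. That of 2 of 6 fat body markers was 74274 in B and 141 to 1894 in the others, with Fbp1 listed at 0. That of 5 of 7 salivary gland markers was 846 in B and 27.7 to 41.0 in the others, with none at 0, and 4 of the 7, Eig71Ee, Sgs4, Sgs5 and Sgs7, were called higher in B per the authors' deposited edgeR table. Sgs3 and Sgs8 had an unadjusted p of 0.00581 and 0.00879 and were not called per the authors' deposited edgeR table. Sgs1 did not follow, with a log2 fold change of 0.72 per the authors' deposited edgeR table, on 16, 8, 17 and 4 reads in A, B, C and D. The salivary gland sum includes Sgs1 and leaves out Sgs4, whose reads could not be written per library. The part of this other RNA in the results below was not tested.

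The precursors shared a positive fold change, higher on the side of A, C and D than in B, and 1 of them, Ilp5, passed the test. In the authors' deposited edgeR table, which holds a quasi-likelihood test adjusted over all transcripts, 1 of the 22 members had a false discovery rate under 0.05 with a positive fold change, beside 0.394% of the 6596 genes that reached a base mean of 10. None of the 22 had a false discovery rate under 0.05 with a negative fold change per the authors' deposited edgeR table, beside 3.2% of those genes. At an unadjusted p under 0.05, 8 of 22 members were positive per the authors' deposited edgeR table, beside 2.97% of genes. The fold change was positive for 22 of 22 members per the authors' deposited edgeR table, beside 51.6% of genes. The median log2 fold change of the members was 0.76 per the authors' deposited edgeR table, with a range from 0.19 to 1.46, and that of all tested genes was 0.01.

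The authors' deposited DESeq2 table, which holds a Wald test, gave a median of 0.67 for the members and 0.02 for all tested genes. No member had an adjusted p under 0.05 there, beside 0.318% of genes with a positive fold change per the authors' deposited DESeq2 table. At an unadjusted p under 0.05, 6 of 22 members were positive per the authors' deposited DESeq2 table, beside 2.4% of genes.

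**Figure D1:**
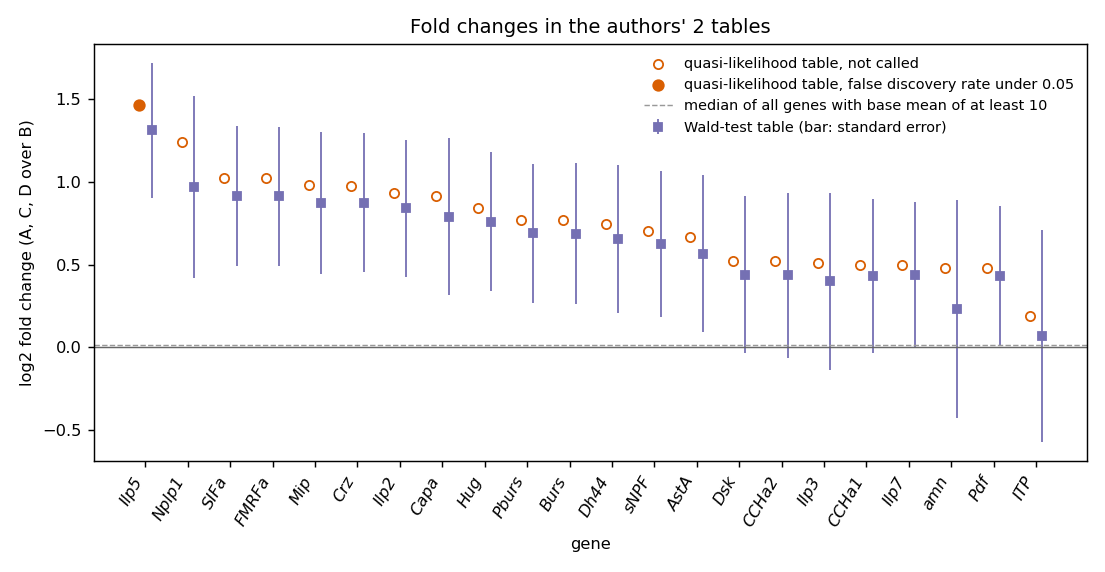
Log2 fold change of the 22 precursor genes that reached a base mean of 10, positive where A, C and D are higher than B; circles are the authors' deposited edgeR (quasi-likelihood) table, squares with standard errors the authors' deposited DESeq2 (Wald test) table. All 22 lie above 0, Ilp5 is highest at 1.46 and is the filled circle, and ITP is lowest at 0.19.

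The insulin-like peptides act through the insulin receptor to set growth and sugar balance. Ilp2, Ilp3 and Ilp5 are made by the insulin-producing cells of the brain, and Ilp7 by neurons of the ventral nerve cord. Ilp5 (transcript NM_206315, chromosome arm 3L) had 17307, 4218, 7877 and 7899 reads in A, B, C and D, which are normalized counts of 11688 (A), 3799.8 (B), 8732 (C) and 11261 (D). B was the lowest and lay well outside the range of the others, which were 3.08, 2.30 and 2.96 times B in A, C and D. The authors' deposited edgeR table gave Ilp5 a log2 fold change of 1.46, with p = 0.000164 and a false discovery rate of 0.0215. The authors' deposited DESeq2 table gave it 1.31 ± 0.408 (SE) with an adjusted p of 0.0569, which missed the threshold.

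Ilp2 (NM_079288, chromosome arm 3L) had the highest base mean of all members, 15646, from 26971, 10250, 12945 and 14581 reads in A, B, C and D, with normalized counts of 18214 (A), 9234 (B), 14349.8 (C) and 20787 (D). B was the lowest and the sides did not overlap, with C closest to B at 1.55 times. In the authors' deposited edgeR table its log2 fold change was 0.93 (p = 0.0106, false discovery rate 0.671), and per the authors' deposited DESeq2 table it was 0.84 ± 0.412 (SE) with an adjusted p of 0.741.

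Ilp3, made in the same cells, did not follow that order. Its normalized counts were 1037 (A), 458 (B), 686 (C) and 225 (D), so D was lower than B and the sides overlapped. The authors' deposited edgeR table gave it a log2 fold change of 0.51 with p = 0.327. Ilp7 counts were 340.4 (A), 294 (B), 418 (C) and 493 (D), with B lowest by a small margin. The log2 fold change of Ilp7 per the authors' deposited edgeR table was 0.50 with p = 0.392.

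Among the precursors of feeding, stress and water-balance peptides, Hug, Capa and Crz had the order of libraries of Ilp2, with D first, then A, C and B. Hug (NM_079605, chromosome arm 3R) encodes the Hugin peptide, which acts on feeding circuits, and had normalized counts of 11805 (A), 6664 (B), 9539 (C) and 14929 (D). These come from 17480, 7398, 8605 and 10472 reads. The authors' deposited edgeR table gave Hug a log2 fold change of 0.85 (p = 0.0221, false discovery rate 1), and the authors' deposited DESeq2 table gave 0.76 ± 0.420 (SE) with an adjusted p of 0.940. Capa (NM_079828, chromosome arm 3R) encodes peptides that act on the renal tubules, and had 4544 (A), 3027 (B), 3857 (C) and 8976 (D). D stood far above the others for Capa, at 2.97 times B, while C was 1.27 times B. The reads of Capa were 6728, 3360, 3479 and 6296 in A, B, C and D. Its log2 fold change was 0.91 per the authors' deposited edgeR table (p = 0.0175, false discovery rate 0.935) and 0.79 ± 0.472 (SE) per the authors' deposited DESeq2 table (adjusted p = 0.9999).

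Crz (NM_079626, chromosome arm 3R) encodes corazonin, a peptide linked to stress and metabolism, and had normalized counts of 5419 (A), 2706 (B), 4185 (C) and 6548 (D). All others lay above B, on 8025, 3004, 3775 and 4593 reads in A, B, C and D. The log2 fold change of Crz was 0.98 per the authors' deposited edgeR table (p = 0.0116, false discovery rate 0.719) and 0.88 ± 0.421 (SE) per the authors' deposited DESeq2 table (adjusted p = 0.700). Dh44 encodes a diuretic hormone related to corticotropin-releasing factor, and had 393 (A), 304 (B), 502 (C) and 646 (D). The sides did not overlap, but the log2 fold change of 0.75 per the authors' deposited edgeR table had p = 0.189. ITP, the ion transport peptide that acts on water balance, had 427 (A), 345 (B), 683 (C) and 55.6 (D) for the transcript chosen. D was 0.161 times B, the lowest ratio of any member, and C was the highest, so the sides overlapped.

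ITP has 5 transcripts in the tables, and 3 had a base mean above 10. The chosen one had 633, 383, 616 and 39 reads in A, B, C and D, and the exact Poisson 95% interval of D, on the normalized scale, was 39.5 to 76.0, against 311 to 381 for B. The interval covers counting error only. The next transcript of ITP had normalized counts of 169 (A), 154 (B), 161 (C) and 179.6 (D), which is a narrow spread. The other one had 123 (A), 222 (B), 199.5 (C) and 114 (D), with B the highest library. The authors' deposited edgeR table gave these log2 fold changes of 0.13 and -0.61, both with an adjusted p of 1.

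**Figure D2:**
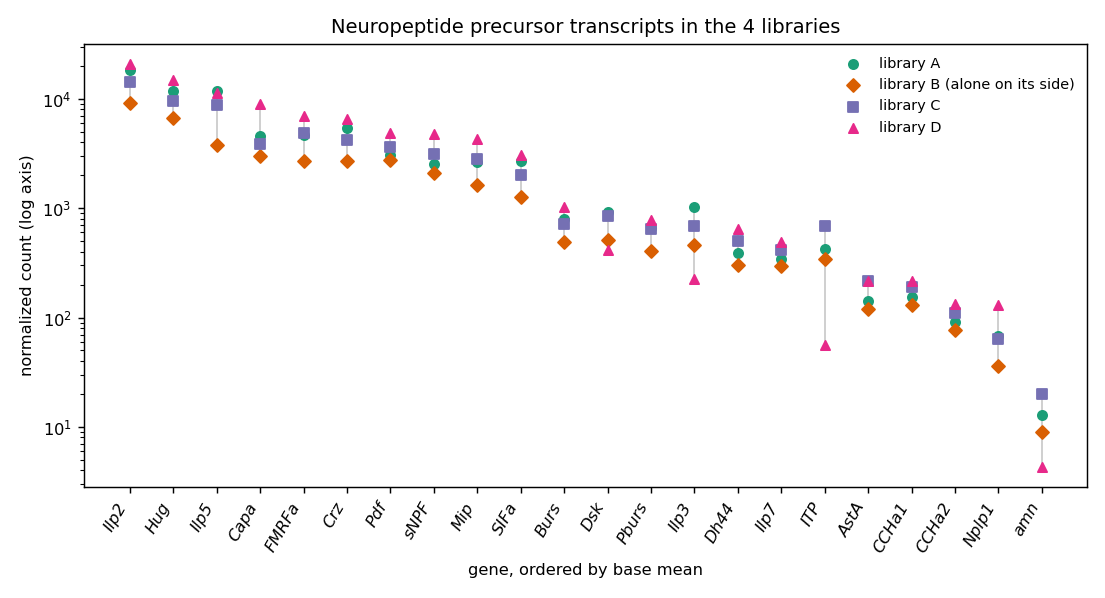
Normalized counts of the 22 precursor transcripts (log axis) in each of the 4 libraries, ordered by base mean. Library B is the lowest point for 18 genes, and D is the lowest for Dsk, Ilp3 and ITP, while the points of B and D for amn rest on 10 and 3 reads and cannot be ordered.

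Peptides that modulate muscle, sleep and circuit state came next. FMRFa (NM_078945, chromosome arm 2R) encodes FMRFamide-related peptides that act on muscle and nerve, and had normalized counts of 4673 (A), 2687 (B), 4869.7 (C) and 6978 (D). B was the lowest, with reads of 6919, 2983, 4393 and 4895 in A, B, C and D. Its log2 fold change was 1.02 per the authors' deposited edgeR table (p = 0.00856, false discovery rate 0.564) and 0.91 ± 0.421 (SE) per the authors' deposited DESeq2 table (adjusted p = 0.609).

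SIFa (NM_001259567, chromosome arm 2R), made by a few large neurons of the pars intercerebralis, had 2696 (A), 1259 (B), 1999 (C) and 3056 (D). All others lay above B, and A and D lay closest to each other. Reads of SIFa were 3992, 1398, 1803 and 2144. Its log2 fold change was 1.02 per the authors' deposited edgeR table (p = 0.0155, false discovery rate 0.868) and 0.91 ± 0.422 (SE) per the authors' deposited DESeq2 table (adjusted p = 0.610). Of the exonic bases of SIFa, 21.1% overlap exons of other annotated genes by position, on either strand. Mip (NM_140714, chromosome arm 3L), which encodes the myoinhibitory peptides, had 2661 (A), 1631 (B), 2810.1 (C) and 4284 (D). D stood above the rest and B was lowest, on 3941, 1810, 2535 and 3005 reads. The log2 fold change of Mip was 0.98 per the authors' deposited edgeR table (p = 0.0166, false discovery rate 0.904) and 0.87 ± 0.431 (SE) per the authors' deposited DESeq2 table (adjusted p = 0.750).

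Pdf encodes the pigment-dispersing factor of clock neurons and had 3085 (A), 2743 (B), 3606 (C) and 4884 (D). A lay 1.12 times above B, the closest approach of A to B among the members that reached a base mean of 10. The log2 fold change of Pdf was 0.48 per the authors' deposited edgeR table with p = 0.214. sNPF encodes the short neuropeptide F, a feeding signal, and had 2557 (A), 2112 (B), 3112 (C) and 4739 (D). The sides did not overlap and D was highest. The log2 fold change of sNPF was 0.70 per the authors' deposited edgeR table with p = 0.0779.

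Burs and Pburs encode the subunits of bursicon, the hormone of cuticle tanning. Burs had 795 (A), 493 (B), 723 (C) and 1022 (D), and Pburs had 655 (A), 404 (B), 643 (C) and 784 (D). Both subunits had the same order of libraries and the same log2 fold change per the authors' deposited edgeR table, 0.77, with p = 0.124 for Burs and p = 0.144 for Pburs.

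Dsk encodes the cholecystokinin-like drosulfakinins that limit feeding, and had 918 (A), 509 (B), 851 (C) and 418 (D). The Poisson 95% intervals of D and B just overlapped, at 371.2 to 468.4 and 467.9 to 552.7 on the normalized scale. D was below B, so the sides overlapped, and the log2 fold change of 0.52 per the authors' deposited edgeR table had p = 0.303. The remaining members above a base mean of 10 were AstA, a gut and brain allatostatin, the CCHamide precursors CCHa1 and CCHa2, the neuropeptide-like precursor Nplp1 and amn, the amnesiac gene known for a role in memory. CCHa1 had 153 (A), 131 (B), 191 (C) and 214 (D), and CCHa2 had 90.5 (A), 76.6 (B), 109.7 (C) and 133 (D). AstA had 142 (A), 119.8 (B), 217 (C) and 214 (D). B had the lowest value in these, but its Poisson 95% interval overlapped that of A in each. For CCHa2 it also overlapped that of C. D was the highest or within the counting error of C. The log2 fold changes were 0.50, 0.52 and 0.66 per the authors' deposited edgeR table, none with an unadjusted p under 0.05.

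Nplp1 had 68.2 (A), 36.0 (B), 63.2 (C) and 129.7 (D), so D stood above all others. Its log2 fold change of 1.24 per the authors' deposited edgeR table had p = 0.0980, and that per the authors' deposited DESeq2 table was 0.97 ± 0.549 (SE). The reads of amn were only 19 (A), 10 (B), 18 (C) and 3 (D). On the normalized scale its Poisson 95% interval was 0.882 to 12.5 in D and 4.32 to 16.6 in B, so no order of B and D can be read at this depth.

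Across the 22 members, A, C and D were each above B in 18, beside 24.7% of the 6549 genes whose reads could be written per library. In Dsk, Ilp3 and ITP, D was below B while A and C were above it, and for Dsk the intervals of D and B just overlapped. For amn the value of D was also under that of B, but on 3 and 10 reads with overlapping intervals, so that its order is not readable. No member was highest in B. The median log2 ratio to B was 0.69 for A, 0.65 for C and 1.07 for D, and over all genes it was 0.05, -0.02 and 0.01. Summed over the 22 transcripts, normalized counts were 72375 (A), 39040 (B), 62165 (C) and 90780 (D). The reads of these transcripts, before normalization, make up 0.755%, 0.408%, 0.667% and 0.913% of the effective library in A, B, C and D. D reached at least 2 times B in 12 members, A in 4 and C in 2. Among A, C and D themselves, the highest library was 1.56 times the lowest at the median member, with a range from 1.22 to 12.3, and the upper end is ITP.

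**Figure D3:**
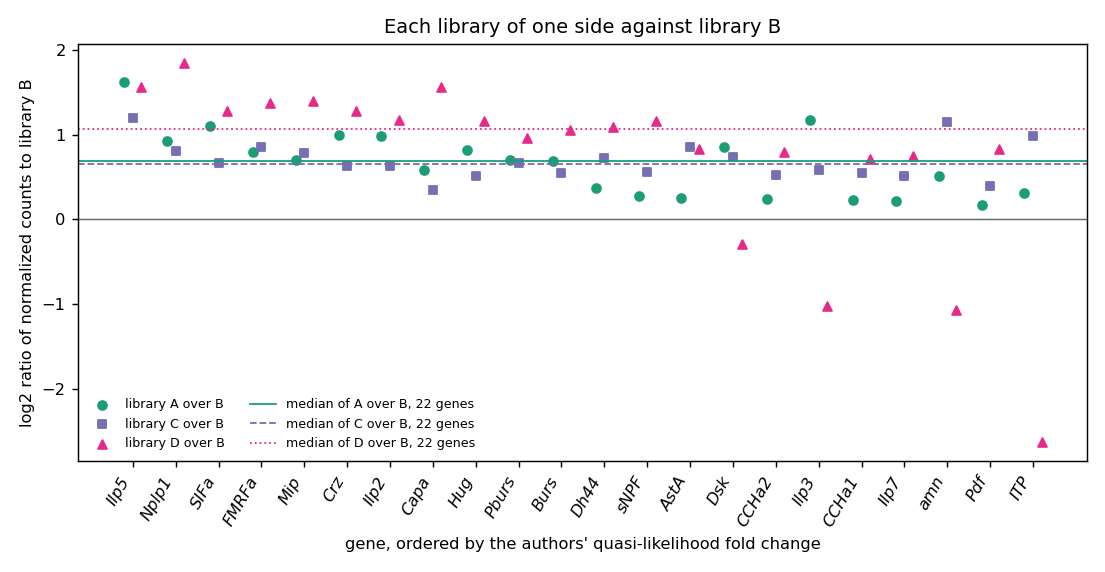
Log2 ratio of the normalized count of A, C and D to that of B for each of the 22 genes, with lines at the medians of 0.69, 0.65 and 1.07. Points of D lie below 0 for Dsk, Ilp3, ITP and amn, the last on 3 reads, and every point of A and C lies above 0.

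Levels were compared between genes per kilobase of exonic length, as the base mean divided by that length. The length covers all annotated transcripts of a gene, while the base mean is that of the chosen transcript only. For Dh44, AstA, ITP, CCHa2 and Nplp1, which have several transcripts, the value is therefore not on the same footing as for the others. Ilp2 was highest at 23352 per kilobase, followed by Ilp5 at 18557, Hug at 10391, Capa at 7339 and Crz at 7209. Pdf, SIFa and FMRFa followed at 5264, 4283 and 3365, then Mip at 2039 and sNPF at 1279. Capa and Crz differed by less than the range over libraries, and so did Burs, Dsk and Pburs, at 1185, 1184 and 1140 per kilobase. Ilp3 had 801, Ilp7 370.02 and CCHa1 201, and Dh44, AstA, ITP and CCHa2 ranged down from 192 to 70.1. Nplp1 and amn were lowest, at 27.5 and 2.91. Ilp2 was above Ilp5 per kilobase in each of A, B, C and D.

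The remaining precursors were at the limit of the tables. Of the 6 members above 0 and under a base mean of 10, Proc, which encodes proctolin, had 11, 8, 9 and 8 reads in A, B, C and D. Ptth, the brain hormone that triggers ecdysone release, had 10, 5, 6 and 6 reads. ETH, the ecdysis-triggering hormone, had 5, 4, 4 and 5 reads, and Lk, leucokinin, had 2, 2, 4 and 3. Ms, myosuppressin, had 4, 4, 1 and 1 reads, and NPF, neuropeptide F, had 1 read in A and 0 in the others, where 0 allows up to 3 reads. No difference between the sides was detectable at this depth in any of the 6, each with an adjusted p of 1 per the authors' deposited edgeR table. Of the exonic bases of ETH and Lk, 90.5% and 93.0% overlap exons of other annotated genes by position, on either strand.

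Allatostatin C (AstC), the crustacean cardioactive peptide (CCAP), the calcitonin-like diuretic hormone (Dh31), the eclosion hormone (Eh) and the tachykinins (Tk) were listed at 0, which cannot be read as an absence of their RNA. Each of these 5 genes has 2 transcripts in the tables. Some genes that every cell uses were also low, such as Gapdh1 at a base mean of 0.169 and RpL32 at 3.74. Others were not, with Act5C at 1584, eEF1alpha1 at 910 and alphaTub84B at 336107. Among members with 1 transcript in the tables, 0 of 19 were at 0 and 17 reached a base mean of 10. Among members with 2 or more, 5 of 14 were at 0 (35.7%) and 5 reached 10. Over all genes, 22.2% of those with 1 transcript and 31.8% of those with 2 or more were at 0. The 3 genes with the least sequence of their own were AstC, Dh31 and Eh, with 3 of 1202, 3 of 1295 and 4 of 704 exonic bases in a single annotated transcript. For Tk and CCAP these were 67 of 1621 and 535 of 1249. How the authors' counting treated reads shared between transcripts is not given in the sources used here, and its part in these values was not tested.

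**Figure D4:**
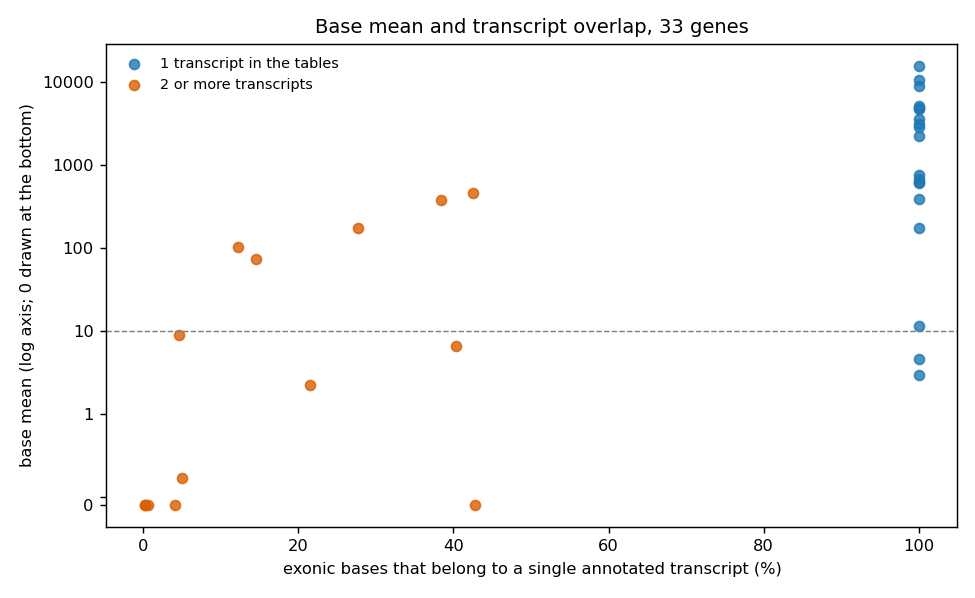
Base mean of the 33 precursor genes (log axis, 0 drawn at the bottom) against the percentage of exonic bases that belong to a single annotated transcript; the dashed line is a base mean of 10. The 5 genes at 0 range from 0.232% to 42.8%, and the 22 above the line from 12.2% to 100%. A gene with a single annotated transcript lies at 100% by construction. Above the line, Dh44, AstA, ITP, CCHa2 and Nplp1, which have several transcripts, lie from 12.2% to 42.5%.

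Genes that work with the precursors were read in the same way, from lists of receptors, of processing and dense-core vesicle genes, and of other precursors. Of 33 receptors of the member peptides, 14 reached a base mean of 10, 11 lay under it and 8 were listed at 0. The median log2 fold change of the 14 was 0.43 per the authors' deposited edgeR table, 11 positive and 3 negative, and 0 were called by edgeR there, 0 at an unadjusted p under 0.05. By DESeq2, 0 of the 14 were called per the authors' deposited DESeq2 table. The median ratios of the receptors to B on the log2 scale were -0.01 for A, 0.42 for C and 0.64 for D, while those of the precursors were 0.69, 0.65 and 1.07.

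Of 13 processing and vesicle genes, 10 reached a base mean of 10, with a median log2 fold change of 0.61 per the authors' deposited edgeR table, 9 positive and none called. The dense-core vesicle gene IA-2 had a log2 fold change of 0.70 with p = 0.0465 and a false discovery rate of 1 per the authors' deposited edgeR table. amon, the prohormone convertase, named after its values were seen, had normalized counts of 4806 (A), 4347 (B), 7208 (C) and 7755 (D). Its libraries A and B lay close together, unlike those of Ilp5. They were also close in Pdf, Ilp7 and CCHa1, where A was 1.12, 1.16 and 1.17 times B. The log2 fold change of amon per the authors' deposited edgeR table was 0.59 with p = 0.113.

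Of 15 other precursor genes, 8 reached a base mean of 10, with a median log2 fold change of 0.31 per the authors' deposited edgeR table, 6 positive and none called. Akh, the adipokinetic hormone of the corpora cardiaca in the ring gland, had normalized counts of 6873 (A), 2911 (B), 2589.5 (C) and 6712 (D). B and C were low together for Akh, so the sides overlapped, and the log2 fold change of 0.87 per the authors' deposited edgeR table had p = 0.0238 and a false discovery rate of 1.

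Neuron markers had positive fold changes too. Their 11 measured members had a median log2 fold change of 0.45 per the authors' deposited edgeR table, 11 positive and none called, with futsch at p = 0.0218 and para at p = 0.0336. Their summed normalized counts were 10054 (A), 8348 (B), 13009 (C) and 15146 (D), which is 1.20, 1.56 and 1.81 times B, while the precursors were 1.85, 1.59 and 2.33 times B. Gene by gene, the median log2 ratio of the neuron markers to B was 0.02 for A, 0.78 for C and 0.30 for D, and A, C and D were each above B in 6 of 11. The difference between the lists was not tested. The part of the neuron share of the tissue in the precursors' values was not tested either. The 5 measured glia markers had a median log2 fold change of 0.21 and the 7 neuroblast markers 0.17 per the authors' deposited edgeR table. For the ring gland, the endocrine tissue attached to the brain, 6 of 8 markers had a median of -0.39 per the authors' deposited edgeR table. Their summed counts were 17390.3 (A), 10816 (B), 6840 (C) and 10140 (D), with tor and jhamt listed at 0. These sums include Akh, described above, the only 1 of the 6 with a positive fold change, at 6873 (A), 2911 (B), 2589.5 (C) and 6712 (D). The marker sad had 7333 (A), 5289 (B), 2962 (C) and 1922 (D), so D was lowest there.

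**Figure D5:**
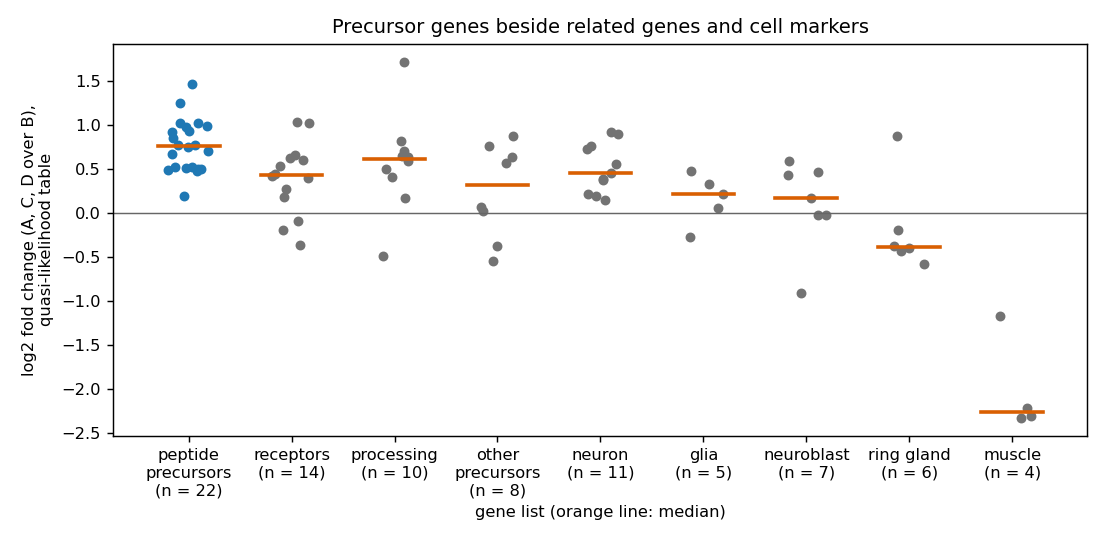
Log2 fold change per the authors' deposited edgeR table for each gene that reached a base mean of 10, by gene list, with the median of each list as an orange line. The precursors lie from 0.19 to 1.46 around a median of 0.76, the receptors around 0.43 and the neuron markers around 0.45.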

How the data were processed

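RNA sequencing of 3 control and 3 dSET2 knockdown samples was read from the authors' deposited comparison tables, which hold no values per sample. Per the submitters' processing notes, HISAT2, featureCounts, DESeq2 and edgeR were named together with the build dm3, without versions or roles. Per the file headers, the authors' DESeq2 table gives a base mean, a signal that averages scaled counts over libraries. Per the file headers, the authors' tables give log2 fold changes and log2 CPM. The deposited Wald and F statistics are each a score, and the deposited p-values are unadjusted and adjusted over transcripts.

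The planned edgeR count test could not be used, because the libraries carry no labels, and the authors' deposited edgeR test stands in its place, with their DESeq2 test as an alternative. No test was rerun. The members and lists were chosen with earlier results of these data known. Of 34115 transcripts, 33992 could be tied through RefSeq accessions to 16958 genes of the table for Release 6 plus ISO1 MT, and 123 did not. Named genes are all members, and genes of other lists with an unadjusted edgeR p under 0.05 in the authors' table. Genes named outside that rule, such as amon, Ilp1, Ilp6 and Ilp8, and genes named for a level or as listed at 0, were chosen after their values were seen. Columns of per-sample values left out numbered 0. Of 9 ring gland entries, 8 matched a single gene.

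Each base mean is a sum of whole reads from 4 libraries, each read worth 0.168831, 0.225211, 0.27713 or 0.356401. Whole reads per library were found from the base mean, the log2 CPM and the log2 fold change jointly, up to a base mean of 20000. Of 7346 transcripts up to 30, all had exactly 1 set of reads within a tolerance of 2e-08, and of 5107 higher ones 5099 (99.84%) did, with 39 above the limit. Of 300 altered values, 0 had one. On simulated data for 11875 transcripts, 100 of 100 checked in each of 3 ranges of base mean came back correct. A normalized count is a read count over the size factor. Effective library size is the library total scaled by the authors' normalization. Intervals are exact Poisson at 95% and floors are 3 reads, for counting error only. Exonic lengths and overlaps came from BDGP6.54, and coordinates are not given because that build is not the authors'. Python 3.11.15, pandas 2.3.3, numpy 2.4.6, scipy 1.17.1, numba 0.67.0 and matplotlib 3.10.9 were used.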

Additional observations from a re-analysis of the deposited data

How the results depend on the processing

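The count of precursors called, 1 per the authors' deposited edgeR table, became 0 per the authors' deposited DESeq2 table and 0 at an adjusted p under 0.01, and was 1 under the other filters tried. Ilp5 was the call, and its log2 fold change per the authors' deposited DESeq2 table was 1.31 with an adjusted p of 0.0569; adjusted over the transcripts that reached a base mean of 10, its edgeR p was 0.0053. The median log2 fold change lay between 0.67 and 0.77 under the other table and filters, and every measured precursor was positive in them except 1 low precursor, Ms, with no filter, and 1 transcript of ITP when every transcript was used. From the reads per library, chosen after the data were seen, the median of A, C and D over B was 0.77, and it was 0.86 without A, 0.81 without C and 0.69 without D, with 21, 20 and 22 of 22 positive. Library B cannot be left out, since it is alone on its side. The medians of the receptor, processing and other precursor lists stayed positive, with 0 called, under the DESeq2 table and a base mean of 20, and that of the other precursors was 0.18 per the authors' deposited DESeq2 table against 0.31 by edgeR. No paired analysis was possible because the libraries carry no replicate numbers, and leaving out each labelled replicate was not run for the same cause. Depth limits the 6 precursors under a base mean of 10 and amn, and the order of libraries whose Poisson intervals overlap in other precursors.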

Other observations

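Of the insulin-like peptide genes outside the list of 33, Ilp1, Ilp6 and Ilp8 reached a base mean of 10. Ilp6, known as an insulin-like peptide of the fat body and glia, had normalized counts of 310.0 (A), 360.3 (B), 287 (C) and 138 (D). The reads were 459, 400, 259 and 97, and the order of A and B was not tested against counting error. B was the highest library, and the log2 fold change was -0.55 per the authors' deposited edgeR table with p = 0.344. Ilp8, known as a growth-coordinating signal of imaginal discs, had 10.8 (A), 14.4 (B), 18.8 (C) and 2.85 (D). D was the lowest library by value for Ilp6, as it was for Ilp3, ITP and Dsk among the precursors. The value of Ilp8 in D rests on 2 reads, beside 16, 16 and 17 in A, B and C. Ilp1 had 6, 8, 15 and 10 reads in A, B, C and D, which are normalized counts of 4.05, 7.21, 16.6 and 14.3. C and D were above B and A was below it, and the log2 fold change of Ilp1 was 0.63 with p = 0.528 per the authors' deposited edgeR table. These genes were chosen after their values were seen, and the difference from Ilp5 was not tested.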
